A study of Mus musculus with 12 samples.

Results

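Liver RNA from zinc-treated Atp7b-/- mice was compared with liver RNA from wild type mice to describe what still differed from the wild type under zinc. The comparison rests on 8 of the 12 arrays of the study: 4 of Atp7b-/- mice that received zinc, chosen by their titles, and 4 of wild type mice that received no agent. The other 4 arrays, of untreated Atp7b-/- mice, are given beside them where they help. All 3 groups were C57Bl/6 and 3 months old, and every sample was a piece of liver measured on an Affymetrix GeneChip, an array of short probes grouped into probe sets. The labels used here name no zinc dose, form or duration, no sex, and no part of Atp7b as the disrupted one. Whether the arrays of a group came from separate animals is stated for the 4 zinc-treated mice alone, so that for the wild type the p-values measure a spread between arrays that may be technical. Each gene is read from 1 probe set as a log2 level, and a change is the zinc-treated mean minus the wild type mean in log2 units, where 1 unit is a doubling. Calls rest on limma: a gene counts as changed where its p, adjusted by Benjamini-Hochberg over all 18193 genes, is under 0.05. All 12 arrays entered the fit and the choice of probe set, so the untreated ones also bear on the spread behind each p.

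Atp7b is a copper-transporting ATPase. In hepatocytes it loads copper onto ceruloplasmin in the secretory pathway and moves excess copper into bile, and its loss leads to copper accumulation in the liver, the basis of Wilson disease in humans. Zinc salts are a treatment of that disease: zinc induces metallothioneins, small cysteine-rich proteins that bind zinc and copper, and in the gut this holds back copper uptake. In the cell the zinc-sensing factor Mtf1 binds metal response elements in the promoters of the metallothionein genes and of the zinc exporter Slc30a1.

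Zinc-treated replicates 2 and 3 stood apart from the other 6 arrays by transcripts of pancreatic acinar cells, the enzyme-secreting cells of the pancreas. The mean level over 23 measured acinar markers was 5.33, 8.40, 6.18 and 5.40 in zinc-treated replicates 1 to 4, and 5.23 to 5.43 in the wild type. The procarboxypeptidase gene Cpb1, chosen after its values were seen, read 4.15, 10.20, 6.21 and 3.73 in the 4 zinc-treated arrays. Where a call named here was lost without these 2 arrays, the adjusted p without them is given beside it. RNA degradation, read as the 3′ minus 5′ difference of control probe sets for actin and Gapdh, was 0.541 to 0.739 in the zinc-treated and 0.617 to 0.784 in the wild type arrays (exact permutation test, two-sided, p = 0.743). The hepatocyte markers averaged 13.92 to 14.04 in the zinc-treated and 14.02 to 14.06 in the wild type arrays. Over these 8 arrays Xist ran from 4.71 to 5.23, and Y-linked genes averaged 7.94 to 8.38.

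Of the 18193 genes, 1386 were called (7.62%): 890 were higher (4.89%) and 496 lower (2.73%) in zinc-treated Atp7b-/- liver. The changes were mostly small, since only 195 of the higher genes (1.07%) and 34 of the lower genes (0.187%) changed by at least 1 log2 unit. Without zinc-treated replicates 2 and 3, 523 genes were called higher (2.87%) and 176 lower (0.967%). Of the 1386 genes, 619 kept their call there and all 1386 kept their sign. The excess of higher calls, 64.2% of all calls, fell to 54.5% after quantile normalization and to 52.1% after each array was centred on its median. At an unadjusted p under 0.05, the threshold of the unadjusted counts given for gene lists, 11.4% of all genes were higher and 10.3% lower. The median change over all genes was -0.023, or -0.059 with median centring. In 2607 genes (14.3%) the zinc-treated arrays did not overlap the wild type arrays.

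**Figure D1:**
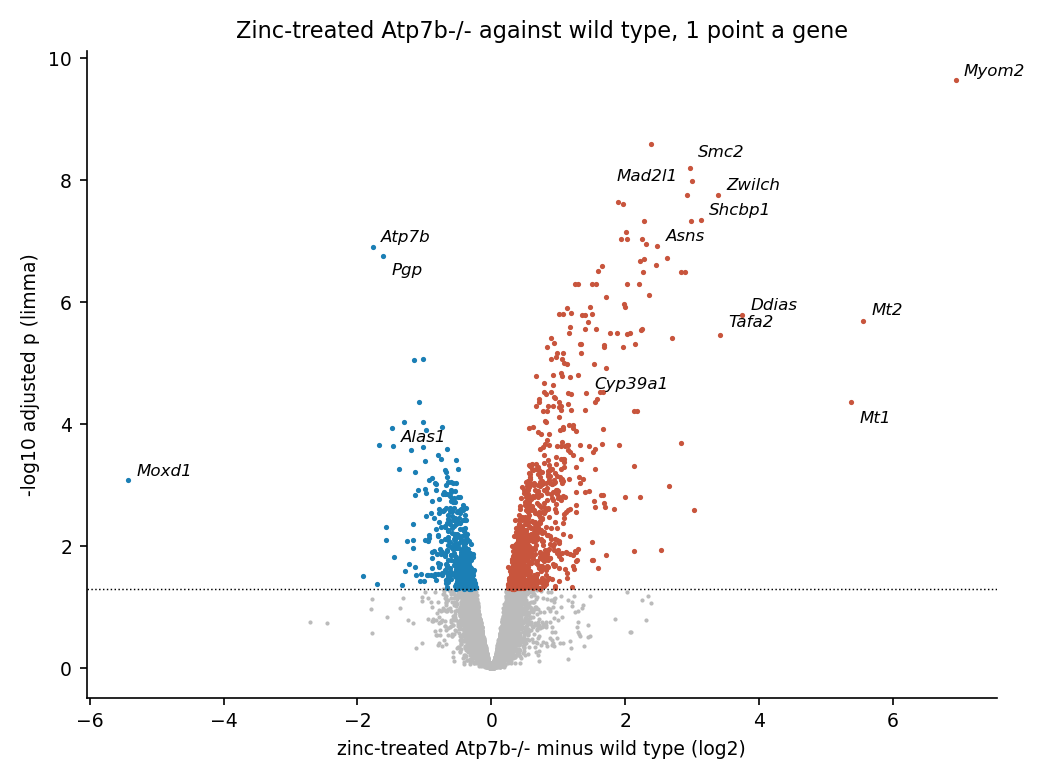
Change in zinc-treated Atp7b-/- against wild type liver (log2, x axis) and its adjusted p from limma (-log10, y axis) for 18193 genes, 1 point a gene. Red points are the 890 genes called higher, blue points the 496 called lower, and the dotted line is the threshold; Myom2, Mt1 and Mt2 lie farthest to the right and Moxd1 farthest to the left.

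The transcript of the disrupted gene was lower but present. Atp7b read 6.85, 6.92, 6.57 and 6.98 in the zinc-treated arrays against 8.51, 8.59, 8.61 and 8.69 in the wild type. The groups did not overlap, and the change was -1.77 (adjusted p = 1.2e-07). Averaged over its 3 probe sets it was -0.96. Since the disrupted part is not given, these probe sets may lie outside it.

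Both liver metallothionein genes were the largest rises after the muscle gene Myom2. Mt1 read 14.62, 14.33, 14.37 and 14.29 with zinc and 9.10, 11.17, 8.71 and 7.14 in the wild type. The zinc-treated arrays lay close together and sat near the top of the array's range, whose highest value was 15.24, whereas the wild type arrays were spread over 4 log2 units. The change of Mt1 was 5.37 ± 0.56 (SE, adjusted p = 4.3e-05), 4.66 when its probe sets were averaged and 3.95 from the probe set that is left without those ending in _x_at or _s_at. Mt2 read 14.16, 13.00, 13.68 and 13.56 with zinc and 7.74, 9.59, 7.72 and 7.14 in the wild type, again without overlap, a change of 5.55 ± 0.42 (SE, adjusted p = 2.0e-06). The highest wild type array for both genes was replicate 2, which also had the highest wild type levels of the acute phase genes Saa1 (14.03) and Lcn2 (10.77). Without zinc, Mt1 and Mt2 in Atp7b-/- liver were 5.63 and 5.72 above the same wild type arrays, and zinc-treated minus untreated was -0.26 for Mt1 (adjusted p = 0.84) and -0.17 for Mt2 (adjusted p = 0.86). Mt3 and Mt4, which are expressed mainly in brain and in squamous epithelia, changed by -0.08 and 0.01 and were not called.

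The sequence that Mtf1 is known to bind was looked for before the starts of Mt1, Mt2 and Slc30a1. The 250 bases before the RefSeq start of Mt2 (GRCm38.p6, chr8:94172368-94172617, plus strand) are shown because Mt2 held the most matches to the core of a metal response element, TGCACNC or TGCGCNC on either strand. Capitals mark its 3 matches, the last of them read on the opposite strand, and no match overlaps another.
Mt2: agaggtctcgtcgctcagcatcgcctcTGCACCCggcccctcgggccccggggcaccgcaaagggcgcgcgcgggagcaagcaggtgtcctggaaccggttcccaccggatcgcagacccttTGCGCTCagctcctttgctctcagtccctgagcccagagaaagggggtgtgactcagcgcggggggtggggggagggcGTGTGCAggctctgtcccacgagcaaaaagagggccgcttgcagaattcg
These windows end at the start used in the RefSeq promoter table, which for Mt1 and Slc30a1 lies inside the annotated gene, downstream of its first base. The matching window of Mt1 held 1 match, at 17 to 23 bases before that start, and that of Slc30a1 held 1, at 37 to 43 bases before that start on the opposite strand. Both of these matches lie within the annotated gene. These 27-base stretches (chr8:94179056-94179082 and chr1:191906728-191906754, plus strand as printed) show each match with its flanks.
Mt1: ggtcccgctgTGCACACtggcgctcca
Slc30a1: cgggggttccGAGTGCAaagcaaagtt
Of the 32851 promoters in the table, 21.4% held at least 1 match in a window of this length and 1.26% held at least 3. The windows of Mt1 and Slc30a1 reach past the first base of the annotated gene. Their single matches thus cannot say how many matches lie before that base, and no conclusion is drawn from these counts. A match is a description of the letters only.

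Of the zinc transporters, 2 exporters and 2 importers were called. Of 10 measured exporters, 2 were called higher and 0 lower, with 2 and 0 at an unadjusted p under 0.05 in limma. Of all genes, 4.89% were called higher and 2.73% lower, and 11.4% and 10.3% were so at the unadjusted threshold. Slc30a1, the plasma membrane exporter, read 11.34, 10.65, 10.96 and 11.03 with zinc and 10.35, 10.48, 10.36 and 10.12 in the wild type. The arrays did not overlap and the change was 0.67 (adjusted p = 0.033), but the call was lost in 6 of the 22 alternative settings, each with 1 array left out (wild type replicates 1, 3 and 4, zinc-treated replicates 1, 3 and 4), with adjusted p up to 0.090. The other was Slc30a9 at 0.30 (adjusted p = 0.039), whose call was lost in 13 settings, among them the one without zinc-treated replicates 2 and 3 (adjusted p = 0.12). Of 14 importers, 2 were called higher and 0 lower (unadjusted 2 and 3). Slc39a4, the importer known for dietary zinc uptake in the gut, read 10.05, 9.88, 9.85 and 10.13 against 9.66, 9.36, 9.45 and 9.27, a change of 0.54 (adjusted p = 0.013) that held in all 22 settings. Slc39a4 in untreated Atp7b-/- liver was 0.13 above the wild type (adjusted p = 0.45), and zinc-treated minus untreated was 0.41 (adjusted p = 0.058). Slc39a8, an importer of zinc and manganese, rose by 0.48 (adjusted p = 0.041, or 0.11 without zinc-treated replicates 2 and 3), a call lost in 11 settings. Mtf1 itself read 7.60, 7.58, 7.58 and 7.54 with zinc and 7.75, 7.90, 8.09 and 7.68 in the wild type, without overlap. Its change was -0.28 (adjusted p = 0.075), or -0.16 with its 5 probe sets averaged. Over the 22 settings the adjusted p ran from 0.035 to 0.25, so Mtf1 was called in at least 1 of them.

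Of 22 measured genes of copper handling, 2 were called higher and 0 lower (unadjusted 4 and 3). Of all genes, 4.89% were called higher and 2.73% lower (unadjusted 11.4% and 10.3%). The median change of the list was 0.03. The prion protein gene Prnp, whose product binds copper, rose by 0.45 (adjusted p = 0.012). Its change without zinc-treated replicates 2 and 3 was 0.34 (adjusted p = 0.15). The metalloreductase Steap2 read 6.96, 6.70, 6.24 and 7.26 against 6.20, 5.89, 5.94 and 6.40 and rose by 0.68 (adjusted p = 0.037), with overlapping arrays and a call lost in 8 of 21 settings. With its 5 probe sets averaged the change was 0.38. Ceruloplasmin (Cp) changed by -0.08 and the copper chaperone Atox1 by 0.16, neither of them called. The copper importer Slc31a1 changed by -0.22 (adjusted p = 0.19) and was called only with its 2 probe sets averaged (-0.34, adjusted p = 0.0053).

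The iron exporter ferroportin and the first enzyme of heme synthesis were both lower. Slc40a1 (ferroportin) read 11.24, 11.14, 11.33 and 11.10 with zinc against 11.77, 11.98, 11.76 and 11.57, without overlap, and fell by 0.57 on the log2 scale (adjusted p = 0.0019, called in all 22 settings). It was the only one called among 17 measured genes of iron handling (unadjusted 4 higher and 2 lower). The transferrin receptor Tfrc, not called with all arrays (0.72, adjusted p = 0.21), read 10.45, 8.83, 9.91 and 10.53 against 8.80 to 9.54, so that zinc-treated replicates 1, 3 and 4 lay above the wild type and replicate 2 within it. Its change was 1.28 without zinc-treated replicates 2 and 3 (adjusted p = 0.017). Alas1, the rate-limiting enzyme of hepatic heme synthesis, read 10.14, 10.09, 9.67 and 10.26 against 11.14, 11.96, 11.42 and 11.52. It fell by 1.47 (adjusted p = 2.3e-04) and was called in all 22 settings. Alas1 in untreated Atp7b-/- liver was -0.53 from the wild type (adjusted p = 0.0503), and zinc-treated minus untreated was -0.94 (adjusted p = 0.0085), so the level was lower with zinc than in both other groups. Blvrb, a biliverdin reductase of heme breakdown, rose by 0.55 (adjusted p = 0.045), a call lost in 7 settings, and the other 9 measured genes of heme synthesis and breakdown were not called.

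Gadd45gip1, a factor of the mitochondrial ribosome, behaved similarly on the probe set read here. It read 8.18, 8.29, 8.40 and 8.39 with zinc and 9.42, 9.37, 9.49 and 9.06 in the wild type. That the 2 groups did not overlap is a condition of the rule that named it among the largest falls. The change was -1.02 (adjusted p = 9.1e-05), against -0.06 in untreated Atp7b-/- (adjusted p = 0.71), and zinc-treated minus untreated was -0.96 (adjusted p = 3.6e-04). With its 2 probe sets averaged the change was -0.36 (adjusted p = 0.018), so the other probe set did not fall and the 2 disagreed. None of 36 measured genes of oxidative phosphorylation was called (unadjusted 3 higher and 2 lower), with a median change of -0.01.

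**Figure D2:**
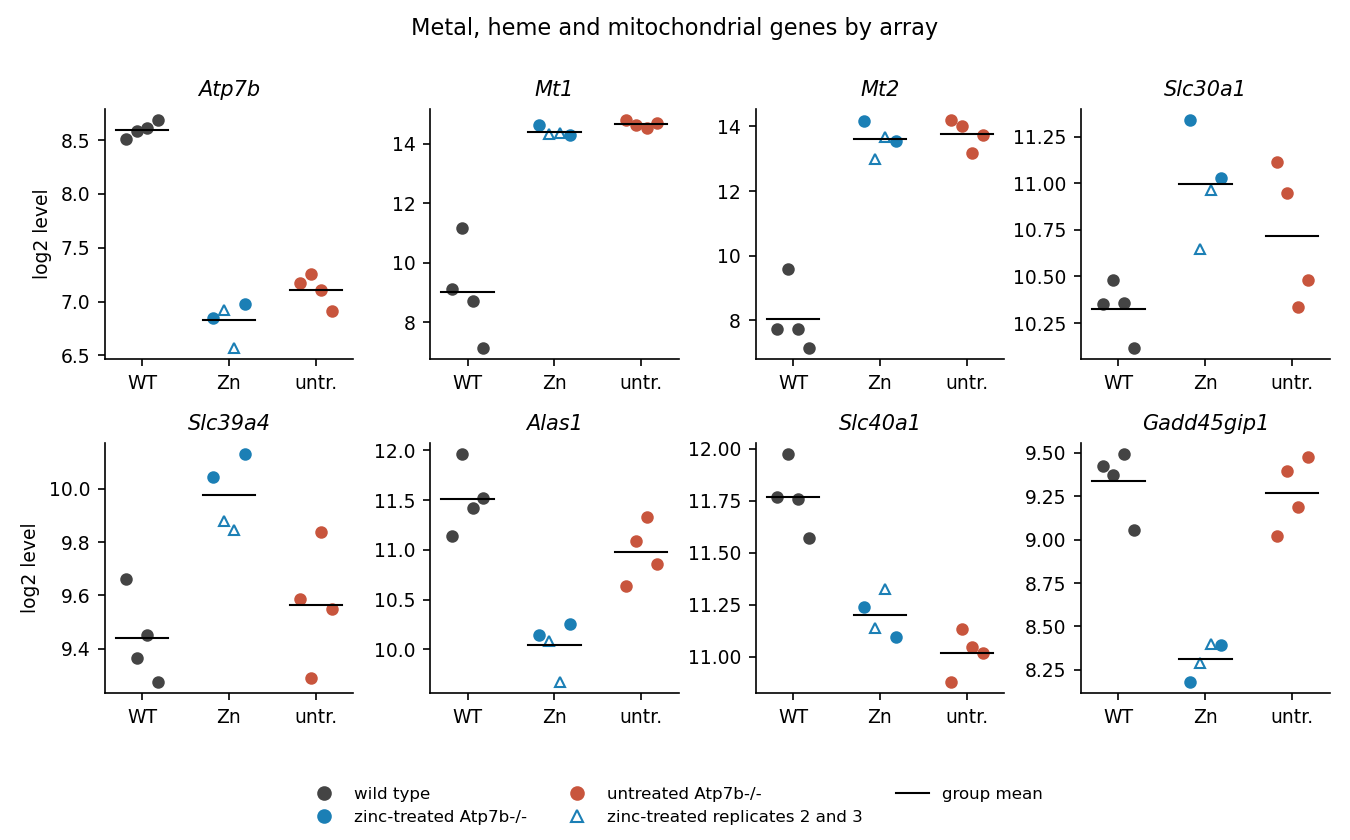
Log2 level (y axis) of 8 genes in the 4 wild type (WT), 4 zinc-treated (Zn) and 4 untreated (untr.) Atp7b-/- arrays; points are arrays, open triangles zinc-treated replicates 2 and 3, and bars group means. Mt1 and Mt2 lie near 14 in both Atp7b-/- groups, whereas Alas1 and Gadd45gip1 are lower with zinc than in either other group.

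The largest rise among the named genes was that of Myom2, a protein of the muscle M-band. It read 10.08, 10.65, 10.61 and 10.58 with zinc and 3.52, 3.40, 3.97 and 3.30 in the wild type, a change of 6.93 (adjusted p = 2.3e-10). The wild type lay below the lower quartile of every array, which ran from 4.13 to 4.29, where the size of a log2 difference rests on the background signal. It was 3.81 as the mean of the 4 probe sets of Myom2. Zinc-treated minus untreated was 1.10 (adjusted p = 0.0047), so Myom2 was highest with zinc. Of the 15 largest rises under the naming rule, 3 were on the list of mitosis genes: Zwilch (3.39), Shcbp1 (3.13) and Cdc20 (2.83). The spindle checkpoint gene Mad2l1 (2.99), its remodeller Trip13 (2.97), the condensin subunit Smc2 (2.96), the centromere protein Cenpw (2.92) and the kinesin Kif20b (2.88) were not on it. With all probe sets averaged, the rises were 1.92 for Trip13, 1.53 for Smc2, 1.02 for Kif20b and 1.83 for Cdc20. The others were Ddias, an apoptosis suppressor (3.74), the secreted protein Tafa2 (3.41), the matrix protein Smoc2 (2.69) and the ciliary gene Cplane1. Cplane1 read 8.54, 10.44, 10.61 and 7.49 with zinc against 5.90 to 6.41, a change of 3.03 (adjusted p = 0.0026) that was 1.78 without zinc-treated replicates 2 and 3, which were its highest arrays, and 1.31 with its 7 probe sets averaged. The wild type means of Tafa2 and Kif20b also lay below the lower quartile of the brightest array.

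The largest fall was Moxd1, a monooxygenase-like gene expressed more in male than in female liver. It read 4.48, 7.98, 7.24 and 3.63 with zinc and 11.35, 11.85, 12.003 and 9.82 in the wild type. All zinc-treated arrays were lower, as the rule for the largest falls requires, and replicates 2 and 3 were the higher pair among them. The change was -5.43 (adjusted p = 8.1e-04), and -7.20 without that pair, where the zinc-treated mean lay below the lower quartile of every array and the size rests on the background signal. Under the naming rule, which asks for a call also without those 2 arrays, Atp7b came next, followed by Pgp, the phosphatase of phosphoglycolate (-1.62), the adhesion molecule Cadm4 (-1.49) and Alas1. The monocarboxylate transporter Slc16a6 (-1.38), the membrane protein Gas1 (-1.31), the ceramide-1-phosphate transfer protein Cptp (-1.20), Srgap3 (-1.15), the lysosomal protease Ctsc (-1.14), Paqr9 (-1.09) and the G protein subunit Gna14 (-1.05) followed. Pgp read 7.54, 7.36, 7.28 and 7.45 against 8.96 to 9.18, and in untreated Atp7b-/- liver it lay lower still (6.62 to 7.02, zinc-treated minus untreated 0.59, adjusted p = 0.0024). The call of Gna14 (adjusted p = 0.029) was lost in 7 settings; the other falls named here held in all. With probe sets averaged, Srgap3 changed by -0.74 and Ctsc by -0.69.

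Mitosis genes were the group with the most calls. Of 29 measured, 13 rose and 0 fell (unadjusted 17 and 0), against 4.89% and 2.73% of all genes, with a median of 0.66. Zwilch, of the kinetochore checkpoint complex, read 7.94, 7.97, 7.80 and 7.73 with zinc and 4.93, 4.13, 4.63 and 4.19 in the wild type (adjusted p = 1.7e-08). Shcbp1, a midbody protein, read 7.88, 8.01, 7.53 and 7.60 against 4.56, 4.42, 5.10 and 4.41 (adjusted p = 4.4e-08). For both, every zinc-treated array lay more than 2 log2 units above the highest wild type array. Ect2, the exchange factor that starts cytokinesis, rose by 2.46 (adjusted p = 2.5e-07) from a wild type mean below the lower quartile of the brightest array. The cyclin-dependent kinase Cdk1 read 8.05, 8.01, 7.85 and 7.82 against 5.92, 6.41, 6.56 and 6.17, a rise of 1.66 (adjusted p = 3.0e-05), and the spindle kinase Aurka rose by 1.39 (adjusted p = 2.7e-06). Cdk1, Aurka and the members named in the next sentences were chosen after their values were seen.

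The rise did not extend to every mitosis gene. The proliferation marker Mki67 read 5.21, 5.61, 5.53 and 5.09 with zinc and 5.55, 5.74, 5.82 and 4.996 in the wild type, with overlapping arrays and a change of -0.17 (adjusted p = 0.78). Cyclin A2 (Ccna2, -0.25), the transcription factor Foxm1 (0.07), Aurkb (0.10) and the cytokinesis scaffold Anln (0.04) were not called either. In untreated Atp7b-/- liver 22 of the 29 were higher and 1 lower than the same wild type arrays (24.6% of all genes were called there, 14.3% higher and 10.3% lower), with a median of 2.04. Against untreated liver, 22 of the 29 were lower and 0 higher with zinc (6.54% of all genes were called there, 4.84% lower and 1.7% higher). Anln showed this in full: it was 2.41 above the wild type in untreated and 0.04 above it in zinc-treated liver, whereas Zwilch was 4.62 and 3.39 above it.

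The list median of the mitosis genes, relative to the wild type mean, was 0.40, 0.85, 0.65 and 0.46 in zinc-treated replicates 1 to 4, so replicates 2 and 3, with the acinar transcripts, were the higher pair. Without zinc-treated replicates 2 and 3, 12 were called higher, with a median of 0.53, and Top2a alone lost its call (0.73, adjusted p = 0.12). In 13 of the 29 (44.8%), replicates 2 and 3 both read above replicates 1 and 4, against 18.8% of all genes. Averaging all probe sets lowered the list median to 0.33, and leaving out dim genes raised it to 1.69. That filter keeps genes by their mean over all 12 arrays, the untreated ones included. It can thus keep members that are high only in Atp7b-/- liver, so no conclusion is drawn from the 1.69. Among 28 genes of DNA replication the calls went both ways, 4 higher and 2 lower (unadjusted 6 and 3), with a median of -0.01. The shares of all genes were 4.89% and 2.73% (unadjusted 11.4% and 10.3%). The replication licensing inhibitor Gmnn rose by 0.70 (adjusted p = 6.5e-04) and the ribonucleotide reductase subunit Rrm1 by 0.54 (adjusted p = 0.0069, or 0.066 without zinc-treated replicates 2 and 3), while the clamp loader subunit Rfc4 fell by 0.79 (adjusted p = 0.0040).

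**Figure D3:**
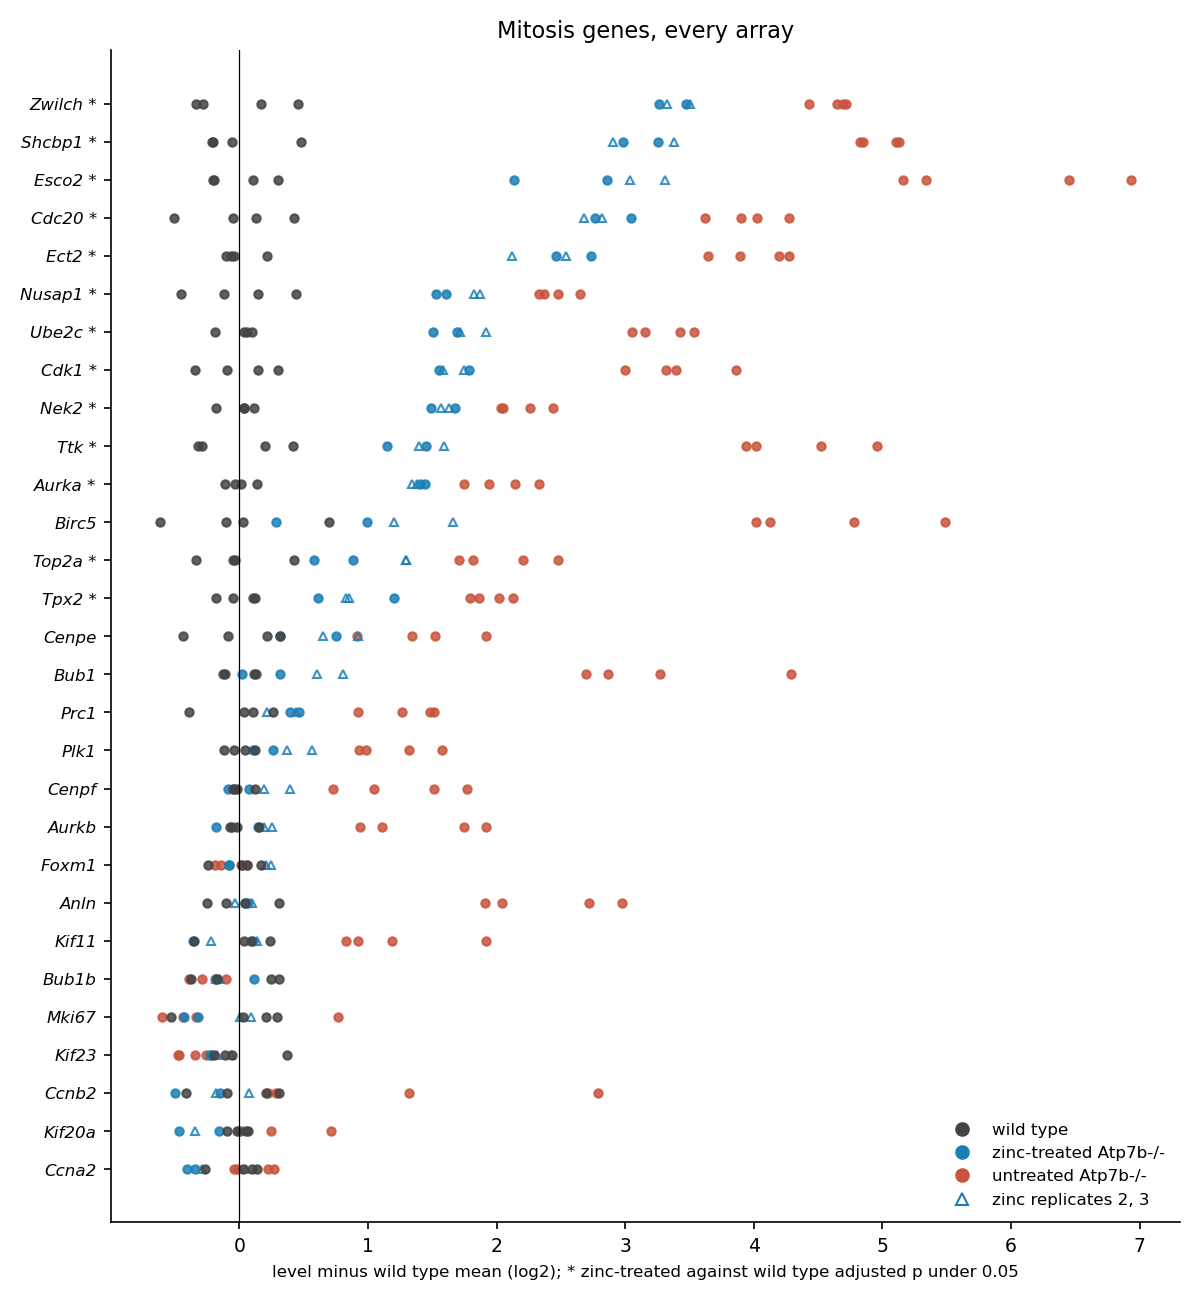
Level of 29 mitosis genes in each array minus the wild type mean of the gene (log2, x axis), for wild type, zinc-treated and untreated Atp7b-/- liver; open triangles are zinc-treated replicates 2 and 3, and an asterisk marks the 13 genes called against wild type. The zinc-treated arrays lie between the wild type and the untreated arrays for Zwilch, Shcbp1 and Cdk1 and on the wild type for Anln and Aurkb.

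Targets of p53, the transcription factor of DNA damage and cell cycle arrest, differed between the zinc-treated arrays. Of 22 measured, 8 rose and 0 fell, against 4.89% and 2.73% of all genes. At the unadjusted threshold 13 rose and 0 fell, against 11.4% and 10.3% of all genes. The median of the list was 0.51. The median over the list, relative to the wild type mean, was 0.25, 1.03, 0.81 and 0.21 in zinc-treated replicates 1 to 4. Replicates 2 and 3, which carried the acinar transcripts, were the high ones. They both read above replicates 1 and 4 in 15 of the 22 genes (68.2%) and in 18.8% of all genes. Without them 4 targets were called higher, with a median of 0.23; the part of these arrays in the result beyond that count was not tested.

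Cdkn1a, the p21 inhibitor of cyclin-dependent kinases, shows the pattern, and was chosen after its values were seen. It read 8.61, 10.26, 10.31 and 8.58 with zinc and 8.28, 7.29, 7.59 and 8.21 in the wild type, a rise of 1.60 (adjusted p = 0.023). Without replicates 2 and 3 the change was 0.75 (adjusted p = 0.18). Ccng1 read 9.89, 11.09, 10.98 and 9.57 against 8.87 to 9.39 and rose by 1.27 (adjusted p = 0.012), or by 0.62 without that pair (adjusted p = 0.039). Trp53inp1, a stress-induced p53 cofactor, read 11.09, 11.95, 11.74 and 11.44 against 9.66, 9.91, 10.36 and 10.49, with no overlap, and rose by 1.45 (adjusted p = 0.0012, or 0.029 without the pair). The apoptosis gene Bbc3 rose by 0.53 (adjusted p = 0.010) and was as high in replicates 1 and 4 (8.33 and 8.39) as in replicates 2 and 3 (8.36 and 8.13). Phlda3 was not called (1.30, adjusted p = 0.12), since it read 6.92 and 6.93 in replicates 1 and 4, near the wild type range of 6.50 to 6.94, and 9.12 and 8.94 in replicates 2 and 3. In untreated Atp7b-/- liver 16 of the 22 were called higher and 0 lower, against 14.3% and 10.3% of all genes in that comparison. The list median there was 1.32, with array medians of 1.15 to 1.49.

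**Figure D4:**
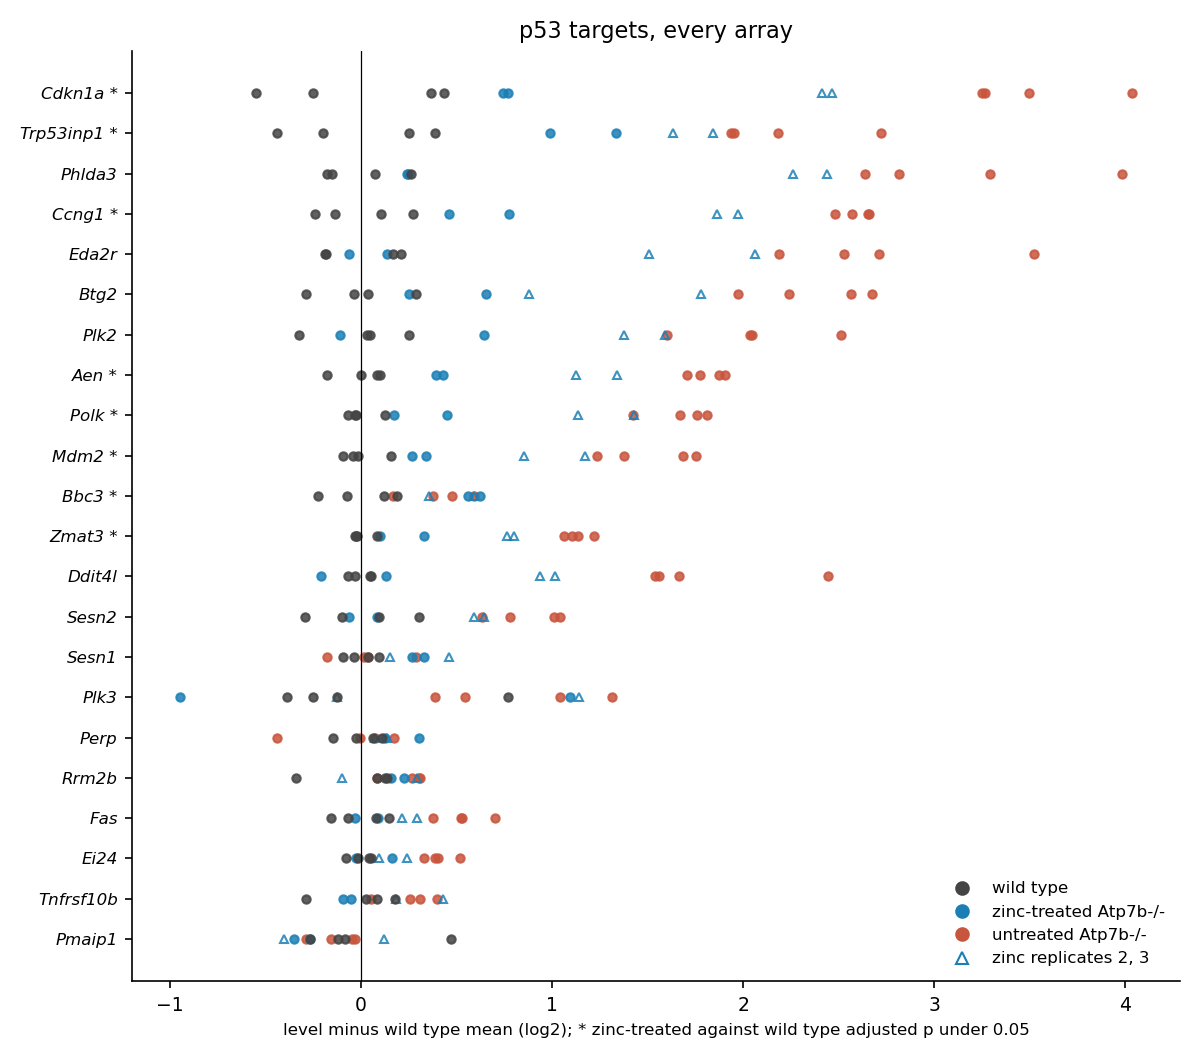
Level of 22 p53 targets in each array minus the wild type mean of the gene (log2, x axis), for wild type, zinc-treated and untreated Atp7b-/- liver; an asterisk marks the 8 genes called against wild type. For Cdkn1a, Phlda3, Ccng1 and Eda2r the open triangles of zinc-treated replicates 2 and 3 lie well to the right of the filled points of replicates 1 and 4.

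Targets of NRF2, the factor that turns on genes against oxidants and electrophiles, were partly higher. Of 23 measured, 8 rose and 0 fell, against 4.89% and 2.73% of all genes. At the unadjusted threshold 13 rose and 0 fell, against 11.4% and 10.3% of all genes. In the list 6 changes were negative, and the median was 0.27. The glutathione transferase Gstm4 read 11.22, 11.18, 11.25 and 11.27 with zinc and 10.30, 9.91, 10.40 and 10.07 in the wild type, a rise of 1.06 (adjusted p = 8.5e-06). The zinc-treated arrays lay within 0.1 of each other and clear of the wild type. Aldehyde oxidase Aox1 rose by 0.74 (adjusted p = 1.5e-04), and the sulfiredoxin Srxn1 by 0.85 (adjusted p = 3.8e-04), a call that was lost without probe sets ending in _x_at or _s_at (0.40, adjusted p = 0.10) and was 0.44 with its 4 probe sets averaged. The quinone reductase Nqo1, chosen after its values were seen, read 7.37, 6.95, 6.45 and 7.49 against 5.52 to 6.63 and rose by 0.91 (adjusted p = 0.035). The other called members were Ephx1, Ugdh, Gstm3 and Gsta4. Not called were Gclc (0.15), of glutathione synthesis, Txnrd1 (0.27) and heme oxygenase Hmox1 (-0.35). Without zinc-treated replicates 2 and 3, 7 were called higher, with a median of 0.33, and Gsta4 lost its call (adjusted p = 0.069).

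Stress genes of protein folding went the other way, and genes of the amino acid response were divided. Of 11 heat shock genes 4 fell and 0 rose (unadjusted 7 and 1), with a median of -0.54. The shares of all genes were 2.73% lower and 4.89% higher (unadjusted 10.3% and 11.4%). The Hsp40 cochaperone Dnajb1 read 8.39, 8.46, 8.11 and 8.50 with zinc and 9.30, 9.62, 9.35 and 9.50 in the wild type and fell by 1.08 (adjusted p = 4.3e-05). The cochaperone gene Bag3 fell by 0.88 (adjusted p = 0.0018), and both genes were called without zinc-treated replicates 2 and 3. Hspb1 (-0.68 with all arrays) and Hspa1b (-1.07 with all arrays) were not called without that pair (-0.57, adjusted p = 0.10, and -1.01, adjusted p = 0.19). Among 22 genes of the unfolded protein and amino acid response, 3 rose and 2 fell (unadjusted 4 and 7), with a median of -0.07. Asparagine synthetase (Asns) read 10.92, 11.12, 10.83 and 10.62 against 8.48, 8.26, 8.74 and 8.07, a rise of 2.48 (adjusted p = 1.2e-07). Ddit3 (CHOP), the stress factor of the same pathway, read 7.25, 6.998, 7.10 and 7.23 against 8.37, 8.77, 8.29 and 7.73, a fall of 1.15 (adjusted p = 6.1e-04). Both genes thus changed clear of the wild type in opposite directions. None of 17 immediate early genes was called (unadjusted 3 higher and 0 lower).

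Cholesterol synthesis was mildly higher, with a wide spread between arrays. Of 20 measured genes 4 rose and 0 fell (unadjusted 12 and 0), 19 changes were positive and the median was 0.43. The shares of all genes were 4.89% higher and 2.73% lower (unadjusted 11.4% and 10.3%). Hmgcs1, which makes the precursor of mevalonate, read 13.72, 13.56, 13.45 and 13.79 with zinc and 12.36, 12.19, 12.77 and 13.19 in the wild type and rose by 1.00 (adjusted p = 0.011, called in all 22 settings). Dhcr7, the last step of the pathway, rose by 0.83 (adjusted p = 0.012, or 0.061 without zinc-treated replicates 2 and 3). Pmvk rose by 0.95 (adjusted p = 0.048), a call lost in 14 settings, and Msmo1 by 0.72 (adjusted p = 0.049). With that pair left out, Pmvk (adjusted p = 0.090) and Msmo1 (adjusted p = 0.16) were not called either, 2 of the 20 were called higher, and the median was 0.61. The list median was 0.41, 0.41, 0.17 and 0.78 in the zinc-treated arrays and ran from -0.33 to 0.42 in the wild type, so the groups overlapped. In 13 of the 20, zinc-treated replicates 2 and 3 both read below replicates 1 and 4, as did 21.1% of all genes.

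Among 16 genes of bile acid synthesis 2 rose. Cyp39a1, the oxysterol 7-alpha-hydroxylase, read 10.44, 10.19, 9.91 and 10.56 with zinc and 8.85, 8.76, 8.87 and 8.95 in the wild type, a change of 1.41 (adjusted p = 3.0e-05). All zinc-treated arrays lay above the wild type and above untreated Atp7b-/- liver (9.30 to 9.89, zinc-treated minus untreated 0.64, adjusted p = 0.017). Acox2, a peroxisomal oxidase of bile acid side chains, rose by 0.35 (adjusted p = 0.013, or 0.11 without zinc-treated replicates 2 and 3). Cyp7a1, the rate-limiting enzyme of the classical pathway, read 10.33, 9.36, 8.59 and 10.34 against 10.59, 10.33, 10.26 and 8.49 and was not called (-0.26). Of 16 bile and drug transporters, the phospholipid flippase Abcb4 (0.36, adjusted p = 0.014) and Abcb1a (0.74, adjusted p = 0.025) rose, calls lost in 2 of 22 and 6 of 21 settings (adjusted p = 0.16 and 0.054 without zinc-treated replicates 2 and 3). The bile salt export pump Abcb11 changed by 0.11, and the transporter list had unadjusted 3 higher and 2 lower.

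Of 24 genes of fatty acid synthesis and lipid storage 1 rose and 2 fell (unadjusted 3 and 2). The shares of all genes were 4.89% higher and 2.73% lower (unadjusted 11.4% and 10.3%). The fatty acid receptor Cd36 read 8.90, 9.45, 8.85 and 8.99 with zinc and 7.98, 8.56, 7.85 and 7.77 in the wild type, a rise of 1.01 (adjusted p = 0.015). Its call was lost without zinc-treated replicate 2 and without replicates 2 and 3 together (adjusted p = 0.11). The lipid droplet proteins Plin2 (-0.47, adjusted p = 0.040) and Plin5 (-0.48, adjusted p = 0.042) fell, calls lost in 12 and 13 settings (-0.41 and -0.26, adjusted p = 0.23 and 0.32, without zinc-treated replicates 2 and 3). Among 27 nuclear receptors, Nr5a2, a regulator of bile acid genes, rose by 0.72 (adjusted p = 0.015), with overlapping arrays and a change of 0.18 (adjusted p = 0.23) when its 4 probe sets were averaged. The adipogenic receptor Pparg read 7.40, 7.29, 6.96 and 7.79 against 6.31 to 6.82 and rose by 0.76 (adjusted p = 0.038), and the estrogen receptor Esr1 rose by 0.61 (adjusted p = 0.036). In untreated Atp7b-/- liver Nr5a2 and Pparg were 0.01 and 0.01 from the wild type, and zinc-treated minus untreated was 0.71 (adjusted p = 0.020) and 0.75 (adjusted p = 0.046). The nuclear receptor list had 3 called higher and 0 lower (unadjusted 4 and 3). The calls of Nr5a2, Pparg and Esr1 against the wild type were lost in 3, 9 and 8 settings. The adjusted p was 0.13 for Nr5a2 and 0.084 for Esr1 without zinc-treated replicates 2 and 3.

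Fatty acid oxidation separated the zinc-treated arrays more than it separated the groups. None of 21 genes was called in limma (unadjusted 2 higher and 4 lower), with a median of -0.02, or 0.15 without zinc-treated replicates 2 and 3. In 17 of the 21 (81.0%), zinc-treated replicates 2 and 3 both read below replicates 1 and 4, against 21.1% of all genes. The extreme case, chosen after its values were seen, was the peroxisome proliferator target Cyp4a14, which read 10.84, 4.88, 4.85 and 11.82 with zinc and 7.50, 8.68, 5.39 and 6.25 in the wild type. Replicates 1 and 4 lay above every wild type array and replicates 2 and 3 below every one. Without replicates 2 and 3, 3 genes of the list were called higher: Cyp4a14 (4.38), Ehhadh (0.57) and Pdk4 (1.56). Pdk4, which restrains glucose oxidation, read 9.05, 7.78, 8.12 and 9.29 against 7.27 to 7.98.

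Genes that differ between male and female liver, which follow the pattern of growth hormone release, were partly lower. Of 16 male-biased genes 3 fell (Moxd1, Cyp2d9 and Cspg5) and 1 rose, Omd, at 0.98 (adjusted p = 7.1e-04), with a median of -0.16. At the unadjusted threshold 5 fell and 1 rose. The shares of all genes were 2.73% lower and 4.89% higher (unadjusted 10.3% and 11.4%). The median of the male-biased list was -0.30 without zinc-treated replicate 2 and -0.32 without replicates 2 and 3. Cyp2d9 read 13.29, 13.24, 13.13 and 13.05 against 13.43 to 13.60, a small fall of 0.31 (adjusted p = 0.023), lost in 4 settings. With that pair left out, the adjusted p was 0.11 for Cyp2d9 and 0.15 for Cspg5. The list median was -0.26, -0.04, -0.07 and -0.41 in zinc-treated replicates 1 to 4, so replicates 1 and 4 were the lower pair. Of 14 female-biased genes (unadjusted 1 higher and 1 lower) 1 was called, Cyp17a1, a steroid hydroxylase. It read 6.05, 6.33, 6.10 and 6.23 with zinc and 7.01, 7.01, 7.17 and 7.07 in the wild type, a fall of 0.89 (adjusted p = 0.016, or 0.087 without zinc-treated replicates 2 and 3), and untreated Atp7b-/- liver lay at 6.84 to 8.17 (zinc-treated minus untreated -1.34, adjusted p = 0.0017). The signalling of growth hormone and IGF had 3 falls and 0 rises among 18 genes (unadjusted 3 and 1). Those that fell were Igfals, which stabilizes IGF in serum, by 0.75 (adjusted p = 3.7e-04, called in all settings), Igf1 by 0.37 (adjusted p = 0.031, lost in 8) and Insr by 0.40 (adjusted p = 0.0496, lost in 12). Neither Igf1 (adjusted p = 0.083) nor Insr (-0.23, adjusted p = 0.30) was called without zinc-treated replicates 2 and 3. Igfals read 9.55, 9.41, 9.54 and 9.74 against 10.13 to 10.39, without overlap.

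Of 25 measured interferon response genes 10 fell and 1 rose (unadjusted 12 and 1), with a median of -0.43, or -0.22 with dim genes left out. The shares of all genes were 2.73% lower and 4.89% higher (unadjusted 10.3% and 11.4%). In 16 of the 25 (64.0%), zinc-treated replicates 2 and 3 both read above replicates 1 and 4, against 18.8% of all genes. Irf7, the factor that amplifies type I interferon, read 7.40, 7.60, 7.52 and 7.32 with zinc and 8.26, 8.40, 8.78 and 8.39 in the wild type, a fall of 1.00 (adjusted p = 0.0011). The antiviral genes Ifit2 (-0.78, adjusted p = 0.0017), Rsad2 (-0.94, adjusted p = 0.0066), Ifit1 (-0.92, adjusted p = 0.0074) and Oas1a (-0.70, adjusted p = 0.0076) fell with it; the last 3 were chosen after their values were seen. The exception was Psmb9, an immunoproteasome subunit, which read 9.14, 9.67, 9.64 and 9.06 against 8.36 to 8.79 and rose by 0.84 (adjusted p = 0.0025). Without zinc-treated replicates 2 and 3, 5 members were called lower and 1 higher, with a median of -0.44, and Rsad2 was not called (adjusted p = 0.054). In untreated Atp7b-/- liver the same list had 12 members lower and 5 higher than the wild type, with a median of -0.54. In that comparison 10.3% of all genes were called lower and 14.3% higher.

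None of 19 markers of Kupffer cells, the resident macrophages of the liver, was called in limma, but 10 were lower and 0 higher at an unadjusted p under 0.05 (10.3% and 11.4% of all genes), 18 of the 19 changes were negative, and the median was -0.54. Their mean level was 7.18 to 7.50 in the zinc-treated and 7.35 to 8.15 in the wild type arrays, which overlapped. Clec4f, specific to Kupffer cells, read 8.79, 8.89, 8.87 and 8.74 against 9.49, 9.62, 9.50 and 9.03 (-0.59, adjusted p = 0.080). Adgre1, a macrophage surface receptor, read 6.89, 7.36, 7.08 and 7.12 against 7.51, 7.96, 7.84 and 7.33 (-0.55, adjusted p = 0.068). In whole liver, fewer cells of a type and less RNA per cell cannot be told apart, and the part of macrophages in the interferon result was not tested.

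Of 20 acute phase genes, Itih3 (-0.42, adjusted p = 0.0021), Itih4 (-0.35, adjusted p = 0.017) and Crp (-0.34, adjusted p = 0.035) fell and Apcs rose (0.49). At the adjusted threshold 4.89% of all genes were higher and 2.73% lower. The list had unadjusted 1 higher and 6 lower, where 11.4% and 10.3% of all genes were, and 15 of its 20 changes were negative. The calls of Itih4 and Crp were lost in 3 and 9 settings. When zinc-treated replicates 2 and 3 were left out, the adjusted p was 0.14 for Itih4, 0.27 for Crp and 0.28 for Apcs. Saa1 was not called (-1.78, adjusted p = 0.27), since it read 8.99, 12.36, 10.96 and 8.86 with zinc and 10.97, 14.03, 13.32 and 9.97 in the wild type. Among 22 genes of complement and coagulation, the mannose-binding lectin Mbl2 read 13.18, 13.62, 13.31 and 13.05 against 12.39 to 12.87 and rose by 0.75 (adjusted p = 0.0061), and C8b fell by 0.50 (adjusted p = 0.029), a call lost in 7 settings. Mbl2 lost its call only without zinc-treated replicates 2 and 3 (adjusted p = 0.080). The complement and coagulation list had unadjusted 1 higher and 2 lower.

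Of 16 measured markers of fetal liver and liver tumours 3 rose and 0 fell (unadjusted 5 and 0). The shares of all genes were 4.89% higher and 2.73% lower (unadjusted 11.4% and 10.3%). Alpha-fetoprotein (Afp), the plasma protein of fetal liver, read 6.93, 7.56, 7.08 and 6.90 with zinc and 5.26, 5.53, 5.89 and 4.98 in the wild type, a rise of 1.70 (adjusted p = 0.0022), or of 0.77 with its 5 probe sets averaged. Untreated Atp7b-/- liver lay at 8.11 to 9.62, higher than zinc-treated liver (zinc-treated minus untreated -1.57, adjusted p = 0.0057). The trefoil factor Tff3, a mucosal peptide that bile ducts also express, read 10.56, 10.69, 10.45 and 11.16 against 9.15, 8.22, 9.61 and 7.92 and rose by 1.99 (adjusted p = 0.0015). Anxa5 rose by 0.52 (adjusted p = 0.011, or 0.10 without zinc-treated replicates 2 and 3). Tff3 was also the only called one of 11 markers of cholangiocytes, the cells of the bile ducts (unadjusted 2 higher and 0 lower), whose mean level was 5.51 to 5.68 with zinc and 5.33 to 5.55 in the wild type. Spink1, a trypsin inhibitor and the only called acinar marker, read 6.87, 8.22, 6.66 and 7.27 against 4.57 to 5.01, a rise of 2.53 (adjusted p = 0.012, or 0.081 without zinc-treated replicates 2 and 3). It was raised on zinc-treated replicates 1 and 4 too, where the acinar list mean lay at the wild type level, and it was 4.61 above the wild type in untreated liver, whose acinar list mean was 5.31 to 5.55.

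Lists of differentiated hepatocyte genes ranged from 0 to 3 calls. Of all genes, 4.89% were called higher and 2.73% lower, and 11.4% and 10.3% were so at an unadjusted p under 0.05 in limma. The P450 and hepatocyte transcription factor lists held a larger share of unadjusted falls than that. None of 10 hepatocyte markers was called (unadjusted 0 higher and 1 lower, median -0.05), and none of 15 pericentral Wnt targets (unadjusted 1 higher and 0 lower, median 0.02). Glutamine synthetase (Glul), the most pericentral of these, changed by 0.09. Single members were called elsewhere: the aminotransferase Agxt2 (0.58, adjusted p = 0.0062) among 23 genes for urea and amino acid breakdown, the methylthioadenosine phosphorylase Mtap (0.51, adjusted p = 0.012) of 16 of the methionine cycle, and the hexosaminidase Hexa (0.67, adjusted p = 0.0014) of 23 lysosomal genes were higher. These lists had unadjusted 2 higher and 0 lower, 1 and 2, and 1 and 3. Of 17 genes of glycolysis and gluconeogenesis, Pfkfb3, which makes the activator of phosphofructokinase, fell by 0.98 (adjusted p = 0.0013), or by 0.54 with its 2 probe sets averaged (unadjusted 1 higher and 3 lower in the list). Of 18 phase I P450 enzymes 3 fell, Cyp2d26, Cyp2c70 and Cyp2d10, by 0.41, 0.33 and 0.23, calls lost in 1, 11 and 14 settings. Leaving out zinc-treated replicates 2 and 3 gave an adjusted p of 0.098 for Cyp2d26 and 0.22 for Cyp2d10. The P450 list had unadjusted 1 higher and 6 lower and a median of -0.18, and its median was lower in each zinc-treated array (-0.22 to -0.07) than in the wild type (-0.03 to 0.09). Of 14 hepatocyte transcription factors Foxa3 fell by 0.84 (adjusted p = 9.1e-04), and Nr5a2 rose. That list had unadjusted 1 higher and 5 lower and a median of -0.22, and its median was lower in each zinc-treated array (-0.252 to -0.165) than in the wild type (-0.159 to 0.189). Foxa3 read 10.18, 9.69, 9.83 and 9.83 against 10.53 to 10.99. Of 18 clock genes, Hlf fell by 0.53 (adjusted p = 0.031), a call lost in 8 settings (-0.31, adjusted p = 0.28, without zinc-treated replicates 2 and 3), and the list had unadjusted 2 higher and 4 lower.

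**Figure D5:**
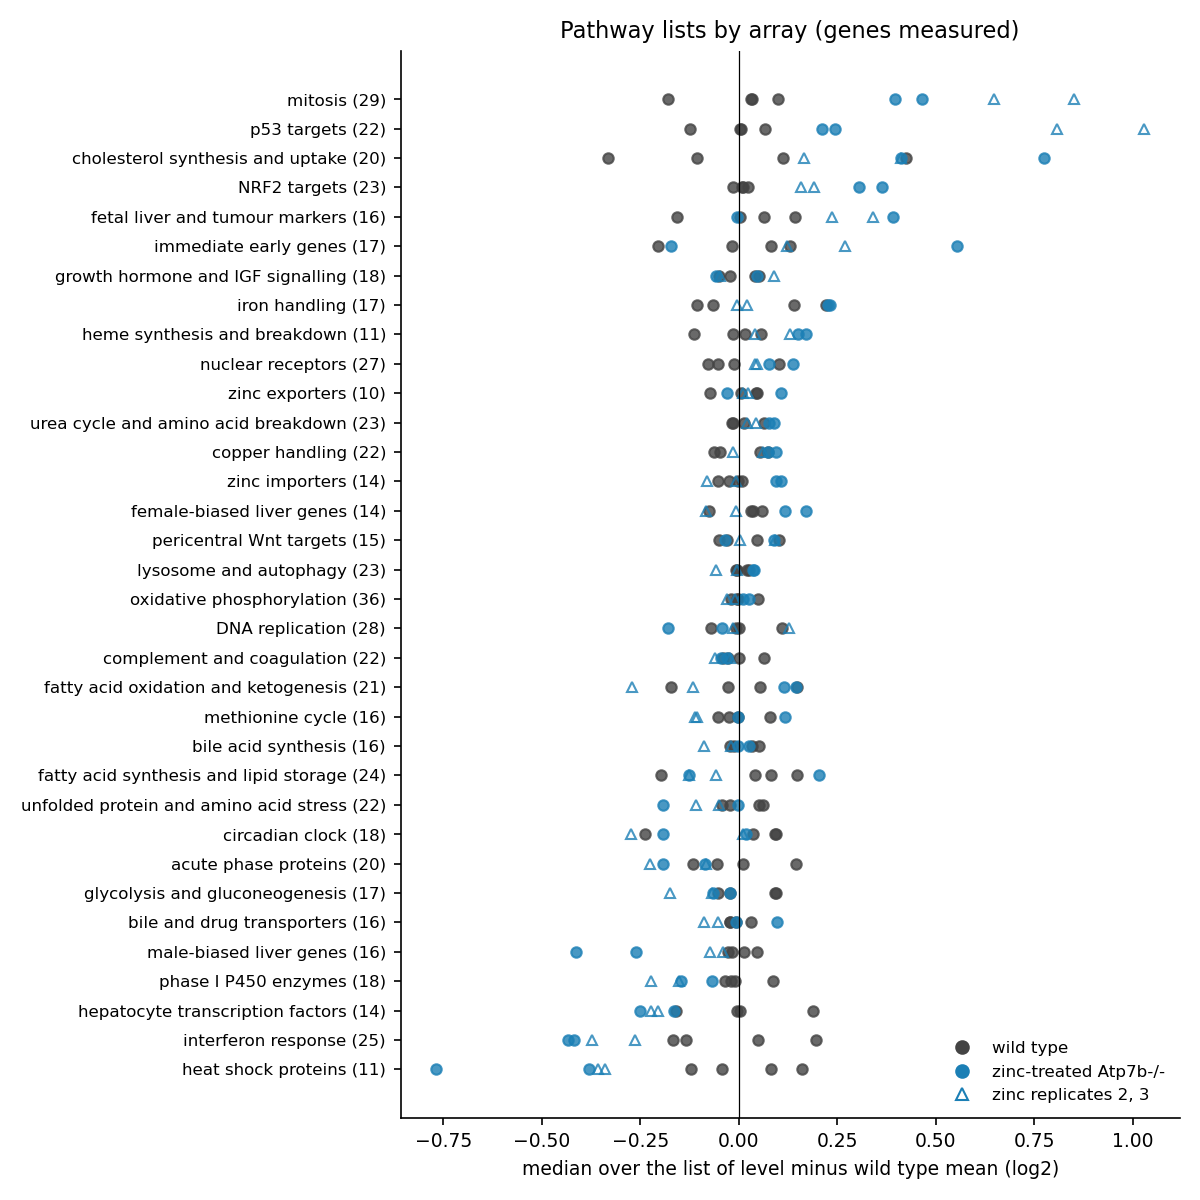
Median over each of 34 pathway lists of the level minus the wild type mean of the gene (log2, x axis), in the 4 wild type and 4 zinc-treated arrays; open triangles are zinc-treated replicates 2 and 3, and the number of genes measured stands in brackets. Mitosis, p53 and NRF2 lists lie above all wild type arrays and the interferon and heat shock lists below them; the metallothionein list, with a median of 2.69, is off this scale and left out.

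Markers of other cell types gave few calls. Of 15 lymphocyte markers 0 were called (unadjusted 0 higher and 1 lower), of 22 markers of stellate cells and extracellular matrix 0 (unadjusted 7 higher and 0 lower, where 11.4% and 10.3% of all genes were, median 0.16), and of 10 pancreatic islet markers 0 (unadjusted 0 and 0). The sinusoidal lectin Clec4g was the only called one of 15 endothelial markers. It read 9.60, 9.36, 9.59 and 9.49 against 9.82 to 10.03 and fell by 0.39 (adjusted p = 0.010, or 0.080 without zinc-treated replicates 2 and 3). Klf1, the erythroid transcription factor, was the only called one of 5 red cell genes. It read 5.93, 5.80, 6.14 and 5.64 with zinc, 6.96, 7.10, 7.01 and 6.23 in the wild type and 6.57 to 7.17 in untreated Atp7b-/- liver, a fall of 0.95 (adjusted p = 0.0080), with zinc-treated minus untreated at -0.97 (adjusted p = 0.0089). Of 11 neutrophil markers Ngp fell by 0.36 (adjusted p = 0.023), and of 6 adipocyte markers Ucp1 fell by 0.53 (adjusted p = 0.0496) to a mean below the lower quartile of the arrays. Their calls were lost in 7 and 11 of 21 settings (adjusted p = 0.15 and 0.24 without zinc-treated replicates 2 and 3).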

How the data were processed

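RNA from 12 mouse liver samples was measured, 4 in each of 3 groups. Per the labels' protocols, RNA was taken from liver pieces in Trizol and cleaned on RNeasy columns. The authors' deposited series table holds log2 values for 45101 probe sets, from 2.22 to 15.24, already on a common scale between arrays. How they were summarised and normalized is not stated in the labels, and they were not scaled again. The number of arrays limits the precision.

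The 64 control probe sets were left out, and 34945 probe sets with exactly 1 symbol in the platform annotation were used (932 had several, 9160 none). For the 9010 genes with more than 1 probe set, the one with the highest mean over 12 arrays stood for the gene. Symbols were updated by gene identifier to RefSeq GRCm38.p6 for 34741 probe sets.

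The test was limma 3.58.1, run in R 4.3.3 (1 fit of group means over 12 arrays, Benjamini-Hochberg adjustment), tested on simulated data. The labels do not say whether equal replicate numbers pair the arrays, so the number entered only as an alternative. Named genes are the 15 largest rises and falls that were called with and without zinc-treated replicates 2 and 3, did not overlap, had a higher mean above the median of all genes and no clone or predicted name, then up to 3 called members with the smallest adjusted p of each pathway list and 2 of each cell type list, and Atp7b, Mt1, Mt2, Slc30a1, Mtf1 and Slc31a1. Other members named were chosen after their values were seen. The members and lists were chosen with earlier results of these data known. Comparisons with untreated Atp7b-/- arrays share arrays with the main one. Alternatives were other scalings, probe set choices, a filter on dim genes, variance models, array weights, the 8 arrays alone, and arrays left out.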

Additional observations from a re-analysis of the deposited data

Results flagged for a closer look

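Single arrays lay far from the other 3 of their group in 12 of 288 groups of 4 values examined, by the size of the gap relative to the group's range. Chance flags about 1 in 20 such groups. In zinc-treated replicate 1, Myom2 (10.08) and the heat shock list median (-0.77) were below, and Itih4 (13.61) above, the other zinc-treated arrays. Smc2 was lowest in zinc-treated replicate 3 (8.82), within 0.1 of the others, and the hepatocyte list median was highest in replicate 4 (0.030). In wild type replicate 4, Cptp (8.04), Igf1 (12.93) and Klf1 (6.23) lay below and Nr5a2 (10.30) above the other wild type arrays. Wild type replicate 1 was low for Igfals (10.13) and high for Anxa5 (10.40), and wild type replicate 2 was high for Omd (6.39).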

How the results depend on the processing

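No named gene reversed in direction, while 15 of 35 pathway list medians, none beyond 0.116 in size with the main setting, changed sign in at least 1 setting. Leaving out zinc-treated replicates 2 and 3 gave 523 higher and 176 lower genes, and a minimum change of 1 log2 unit gave 195 and 34. Leaving out 1 array at a time gave 640 to 1020 higher and 292 to 619 lower genes, with the fewest lower genes without zinc-treated replicate 2 (292) and replicate 4 (296). The replicate number as a block gave 894 and 459; equal numbers deviated together with correlations of -0.13 to 0.24 between the zinc-treated and wild type arrays, and 2 of 4 arrays matched their own number best. Of the 98 named genes, 57 kept direction and call in every setting, and of 2144 pairs of gene and setting 235 lost the call and 5 gained one. Of 769 pairs of list median and setting, 730 moved by less than the standard deviation of the list median over the 4 zinc-treated arrays. That spread is wide where zinc-treated replicates 2 and 3 differ from replicates 1 and 4, so shifts without that pair can count as small. Among these were p53 targets (0.51 to 0.23), cholesterol (0.43 to 0.61) and fatty acid oxidation (-0.02 to 0.15). The pairs that moved by more follow. With the mean of all probe sets the medians were 2.34 for metallothioneins, 0.023 for heme, 0.33 for mitosis, -0.031 for complement and -0.032 for oxidative phosphorylation. Without probe sets ending in _x_at or _s_at they were 1.98 for metallothioneins and -0.15 for hepatocyte transcription factors. Leaving out dim genes gave 1.69 for mitosis, 0.22 for DNA replication, -0.18 for the unfolded protein list and -0.22 for interferon. Without zinc-treated replicates 2 and 3 they were 0.19 for heme, 6.6e-04 for transporters, 0.13 for nuclear receptors, 0.078 for the urea cycle, -0.12 for P450 enzymes and 0.061 for lysosome. Median centring gave -0.049 for complement, 0.0039 for the urea cycle, -0.042 for oxidative phosphorylation and -0.26 for hepatocyte transcription factors, quantile normalization -0.038 for complement, and array weights -0.18 for hepatocyte transcription factors. With 1 array left out the medians ran from 2.35 to 3.01 for metallothioneins, 0.031 to 0.14 for nuclear receptors, -0.46 to -0.32 for interferon, -0.042 to 3.4e-04 for complement, -0.012 to 0.061 for the urea cycle, -0.23 to -0.064 for P450 enzymes, -0.27 to -0.16 for hepatocyte transcription factors and 0.011 to 0.099 for Wnt targets. The cause of these shifts was not tested. Dim probe sets limit the size of large differences, as for Myom2.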

Other observations

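Called genes were more frequent on the chromosome of Atp7b than on others. By the RefSeq GRCm38.p6 annotation, 113 of 932 measured genes on chromosome 8 were called (12.1%), against 5.68% to 8.83% on each of the other chromosomes and 7.62% overall. They were divided between 62 higher and 51 lower genes. Within 20 Mb of Atp7b, itself left out, 36 of 247 measured genes were called (14.6%). Beyond 20 Mb on the same chromosome, 76 of 684 were (11.1%). Chromosome 8 also holds Mt1, Mt2, Myom2 and Shcbp1. Nek3, a kinase gene close to Atp7b and chosen after its values were seen, was 1.05 higher in zinc-treated (adjusted p = 2.3e-04) and 1.40 higher in untreated Atp7b-/- liver than in the same wild type arrays. The cause of the higher share was not tested.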
